A study of Mus musculus with 8 samples.

Results

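MEF2 transcription factors and the class IIa histone deacetylases that bind them were followed across 8 ATAC-seq libraries of mouse gastrocnemius muscle. The genes were Mef2a, Mef2b, Mef2c, Mef2d, Hdac4, Hdac5, Hdac7 and Hdac9, and every region that the deposited table annotated to one of these 8 names was taken. This gave 548 regions of 489637 in the table, 208 for the MEF2 factors and 340 for the class IIa deacetylases. All mice carried the genotype Cre+:iMSBmal1 fl/fl and were 6 months old. The 4 Vehicle libraries came from mice given vehicle, and the 4 iMSBmal1KO libraries from mice given Tamoxifen. The titles of both groups also hold the word Control. In this line the recombinase is driven in skeletal muscle fibres and becomes active with tamoxifen, so that the floxed clock gene Bmal1 is deleted there. The Vehicle mice also carried Cre and the floxed alleles, and the effects of tamoxifen and of the deletion cannot be told apart. Each library was made from nuclei of the whole muscle, so more nuclei of a cell type and more open chromatin per nucleus cannot be told apart. The labels do not say that the libraries of a group were separate animals, so the p-values measure only the spread between these samples. The comparison asked whether loss of muscle Bmal1 altered how open the chromatin was at these genes.

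MEF2 proteins bind A/T-rich elements in the promoters and enhancers of muscle genes, where they act with myogenic factors and coactivators. Class IIa deacetylases have little enzyme activity of their own. They dock on MEF2 and hold its target genes down together with corepressors. Calcium and energy signals reach this switch through kinases that phosphorylate the deacetylases, which then bind 14-3-3 proteins and leave the nucleus. The switch is known in skeletal muscle for its part in fibre type, in oxidative metabolism and in the response to lost innervation. BMAL1 binds, with its partner CLOCK, to E-box sequences.

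Promoter sequence was read from RefSeq (GRCm38.p6), which held 14 windows for the 8 genes, each of 300 bases with 250 before the transcription start. Motifs were searched on both strands. The E-box CACGTG was in 1 of the 14 windows and in 7.15% of all 32851 promoter windows of that length. The MEF2 consensus, a palindrome of 10 bases, was in 2 of the 14 and in 3.19% of all. A match is a description of the letters and not evidence of binding. The following stretches hold 120 bases before and 10 bases from the start. Those of Mef2a and Hdac5 are shown because they hold the motifs, in capitals, and those of Mef2c because its promoters had the largest differences among the promoter sums.
Mef2a, chr7:67372849-67372978, minus strand, capitals the MEF2 consensus: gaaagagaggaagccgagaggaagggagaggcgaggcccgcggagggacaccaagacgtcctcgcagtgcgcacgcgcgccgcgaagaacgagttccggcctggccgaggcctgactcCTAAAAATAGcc
Hdac5, chr11:102230163-102230292, minus strand, capitals first the MEF2 consensus and then the E-box: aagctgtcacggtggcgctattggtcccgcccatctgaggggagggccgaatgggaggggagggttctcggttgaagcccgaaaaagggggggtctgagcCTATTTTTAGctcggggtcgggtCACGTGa
Mef2c at the upstream start, chr13:83503914-83504043, plus strand: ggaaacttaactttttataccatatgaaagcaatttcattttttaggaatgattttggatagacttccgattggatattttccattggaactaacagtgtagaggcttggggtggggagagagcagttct
Mef2c at an internal start, chr13:83573487-83573616, plus strand: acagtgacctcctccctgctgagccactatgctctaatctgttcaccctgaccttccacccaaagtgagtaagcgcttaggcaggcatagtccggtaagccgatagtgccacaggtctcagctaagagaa
In Mef2a the consensus began 2 bases before the start. In Hdac5 it began 20 bases before, and the E-box began at base 4 of the transcript. None of the 3 Mef2c windows held either motif. The Hdac5 window lay in regions that the table annotates to Mir8101, which are therefore not among the 548. The larger of these, chr11:102230182-102230513, had 261 ± 63.9 in vehicle and 312 ± 31.5 in iMSBmal1KO (SD, n = 4, log2 change 0.28, limma adjusted p = 0.661).

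Depth ran from 4.31 to 29.5 M reads in regions per library (M, units of 1e+06). Vehicle replicate 4 was the shallowest, had 16.5% of its reads on mitochondrial DNA and correlated with the other libraries at 0.80 to 0.85. The targeted gene, listed as Arntl, had summed signal of 1942 to 2688 in vehicle and 3023 to 3421 in iMSBmal1KO, with no overlap. The log2 change was 0.46 ± 0.14 (SE, limma adjusted p = 0.318), and 5.21% of all gene sums did not overlap. Of its 37 tested regions 1 passed the test, and the log2 change was above 0 in 34. Over all tested regions 0.0881% passed and 62.0% had a change above 0. The labels do not name the deleted exon. The pooled promoters of the fast fibre list had 1228 per kb of region. Its myosin genes Myh1, Myh2 and Myh4 had 79.6, 51.4 and 209, and its other genes 798 (Pvalb) to 1876 (Acta1). Pooled slow fibre promoters had 125 per kb, and those of the other non-immune lists 42.5 (endothelial cell) to 254 (satellite cell). Those of macrophage and of B and T cell genes had 29.7 and 25.5, with no region at all at the defining genes Cd68, Adgre1, Mrc1, Cd79a, Ms4a1, Cd3e and Cd3d. No promoter of the 9 marker lists passed the test. Summed satellite cell promoters spanned 435 to 628 in vehicle and 583 to 788 in iMSBmal1KO, and Schwann cell promoters 275 to 426 and 415 to 539. The part of these in the results below was not tested.

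No region of the 8 genes passed the test between iMSBmal1KO and Vehicle. Each value is the deposited signal, a read count scaled per library. Of the 548 regions, 199 had enough signal to be tested and 349 did not. The limma test with Benjamini-Hochberg adjustment over all 124901 tested regions called 0.0881% of them, and 0 of the 199, where the smallest adjusted p was 0.214. At an unadjusted p under 0.05 stood 13 of the 199 (6.53%), against 9.22% of all tested regions. Of the 13, 8 were higher in iMSBmal1KO and 5 lower, where the background was 6.59% higher and 2.63% lower. Both this split and the share depended on the setting. Under median-of-ratios factors 8 were higher and 13 lower (10.6% of the member regions and 9.77% of all), under total signal 7 and 13 (10.1% and 8.52%), and under a loess fit 7 and 17 (12.1% and 10.1%). Voom weights gave 11 and 14 (12.6% and 11.4%), and leaving out Vehicle replicate 4 gave 7 and 11 (9.05% and 7.83%). The member share was thus below that of all regions as first given and above it in these 5 settings, so neither is read as a result about these genes. The 2 groups of libraries did not overlap in 12 of the 199 regions (6.03%), 6 in each direction, against 5.48% of all tested regions.

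The MEF2 regions lay around the median of the table, through Mef2c, and the deacetylase regions mostly below it, with no region called in either. The median region of the table had a log2 change of 0.12, which moved to 0.00 to 0.01 under the 3 other scalings, so changes are best read against it. The median was 0.11 over 66 tested MEF2 regions, 30 of which lay above that of all regions. It was −0.05 over 133 deacetylase regions, 39 of which lay above. Of the 30 MEF2 regions above, 21 belonged to Mef2c, of its 36 tested. Mef2a had 5 of 12 above, Mef2b 0 of 3 and Mef2d 4 of 15, so these factors also lay mostly below. Neighbouring regions share libraries and reads and are not independent, so these shares carry no test. Among single genes Mef2c had the highest median, 0.21, and Hdac4 the lowest of the deacetylases, −0.08.

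**Figure D1:**
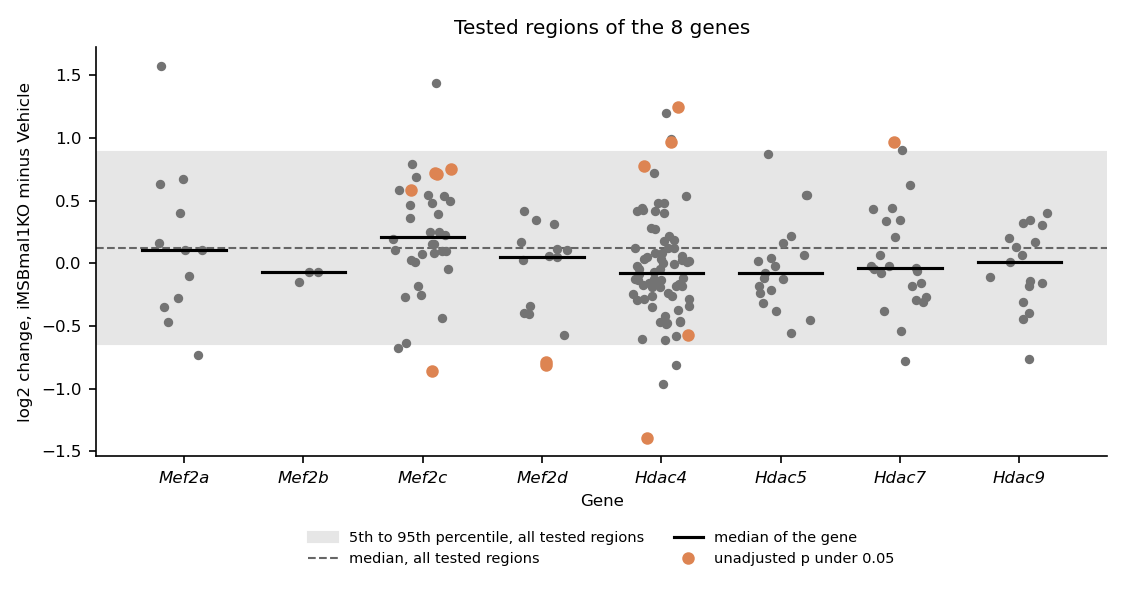
Log2 change (iMSBmal1KO minus Vehicle, limma) of each of the 199 tested regions by gene. Black bars are gene medians, the dashed line is the median of all tested regions (0.12), the grey band spans their 5th to 95th percentile (−0.64 to 0.89), and orange points have an unadjusted p under 0.05. Mef2c has 5 orange points, 4 of them above 0, and Mef2a, Mef2b, Hdac5 and Hdac9 have none.

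Summed over all of its regions, no gene passed the test, and in none did the groups separate, against 0.170% of 19404 genes called and 5.21% with groups that did not overlap. Mef2c, a factor needed for heart and muscle development, had 2102, 1931, 1526 and 1432 in vehicle and 2047, 2132, 1982 and 2186 in iMSBmal1KO. Vehicle replicates 2, 3 and 4 lay below every iMSBmal1KO library, and replicate 1 above 2 of them. The means were 1748 ± 320 and 2087 ± 90.2 (SD, n = 4), a log2 change of 0.27 with a 95% interval of −0.03 to 0.58 (limma adjusted p = 0.518, exact two-sided permutation p = 0.114). The change was 0.16 under median-of-ratios factors and 0.15 under total signal, and without Vehicle replicate 4 it was 0.18. The other 7 genes had log2 changes from −0.19 for Mef2b (95% interval −0.57 to 0.19) to 0.10 for Hdac9, while the median over all genes was 0.12. Without Vehicle replicate 4 these were −0.09 for Mef2b and 0.0037 for Hdac9, and without Vehicle replicate 1 −0.30 and 0.21. The values of Mef2a, Mef2d, Hdac4 and Hdac9 took the other sign under at least 1 other scaling.

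Mef2a, abundant in adult muscle, had 1465 ± 196 in vehicle and 1490 ± 140 in iMSBmal1KO (SD, n = 4), a change of 0.03 with an interval of −0.27 to 0.33. Mef2d, which has a splice form particular to muscle, had 2148 ± 254 and 2198 ± 222, with an interval of −0.25 to 0.33. Hdac4, the deacetylase best known from denervated muscle, had 7374 ± 1252 and 7228 ± 652, with an interval of −0.30 to 0.27. Hdac5, a signal-responsive repressor, had 2294 ± 431 and 2212 ± 207, with an interval of −0.35 to 0.28. Hdac7, better known from thymocytes and vessels, had 1746 ± 111 and 1701 ± 63.6, with an interval of −0.31 to 0.24. Hdac9, whose MITR splice form lacks the deacetylase domain, had 892 ± 188 and 942 ± 78.4, with an interval of −0.24 to 0.44. In these 6 genes each group's range overlapped the other's. For all 8 genes the coefficient of variation was larger in vehicle than in iMSBmal1KO, as it was at the median gene of the table (19.6% and 14.04%).

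**Figure D2:**
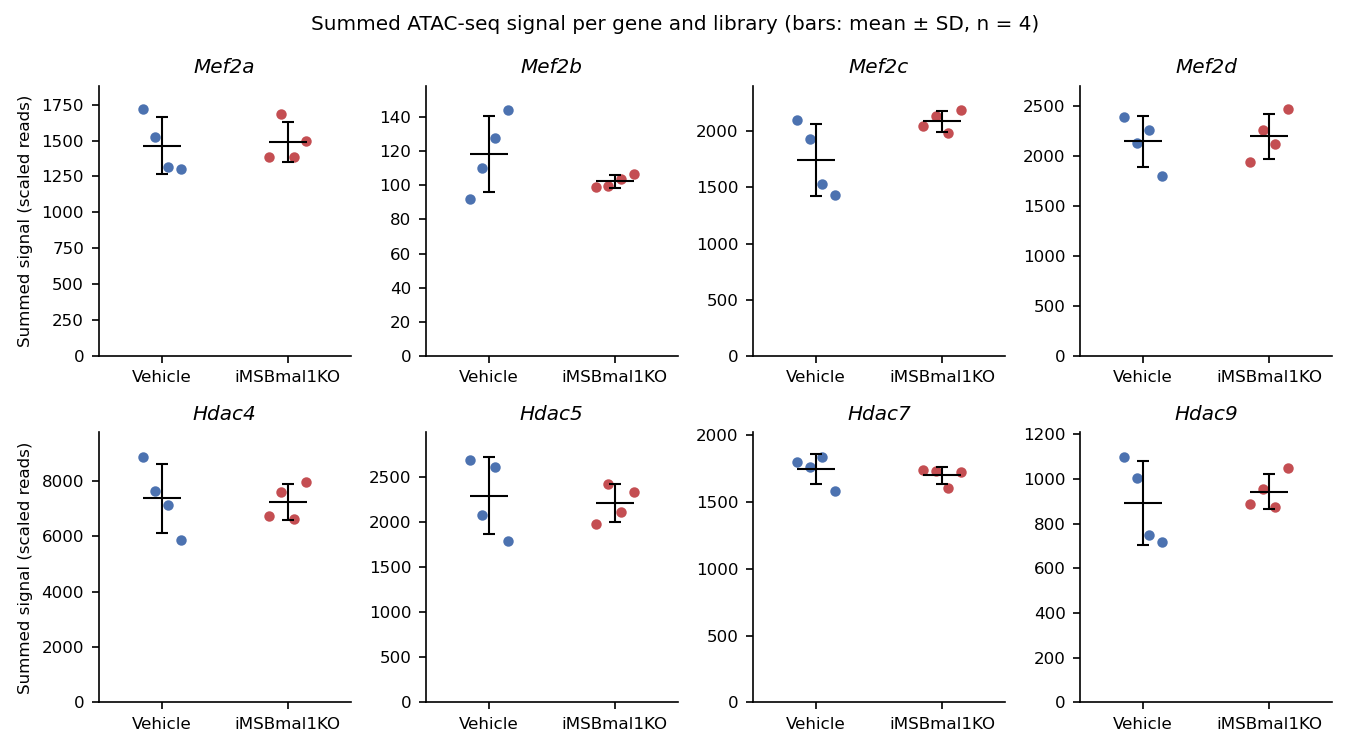
Summed signal of all regions of each gene (scaled reads, axes from 0) in each library, with mean ± SD (n = 4 per group). Points stand in the order of replicates 1 to 4. In every panel the iMSBmal1KO points overlap the Vehicle points, and for Mef2c the iMSBmal1KO points lie between 1982 and 2186.

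Promoter levels differed widely between the 8 genes, and the group means of each gene were close except at Mef2c. Mef2c had 127 ± 23.3 per kb in vehicle and 163 ± 10.8 in iMSBmal1KO (SD, n = 4). The promoter was taken as all regions within 1000 bp of a listed start of the gene, and levels between genes are given per kb of region. By this measure Mef2a stood first at 1111 per kb, above 96.4% of the 22227 genes with such regions. Hdac5 had 786, Mef2d 782 and Hdac4 690 per kb. The library ranges of these 4 neighbours overlapped. Mef2c, at 145 per kb, and Hdac7, at 130, also overlapped each other, and both lay below every library of Hdac4 (lowest 569). Mef2b, a factor known mainly from lymphoid cells, had 69.8, and Hdac9 had 54.7, above only 28.6% of genes. Mef2b and Hdac9 overlapped each other and lay below every library of Hdac7 (lowest 116). This level averages over strong and weak regions, of which Mef2a had 2, Hdac4 17 and Mef2c 25. At the strongest promoter region alone, Hdac4 had 2003 per kb, Hdac5 1944, Mef2d 1418, Mef2a 1197 and Mef2c 649. Hdac7 had 192 there, Mef2b 114 and Hdac9 96.3. The order of the genes thus depended on the measure.

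**Figure D3:**
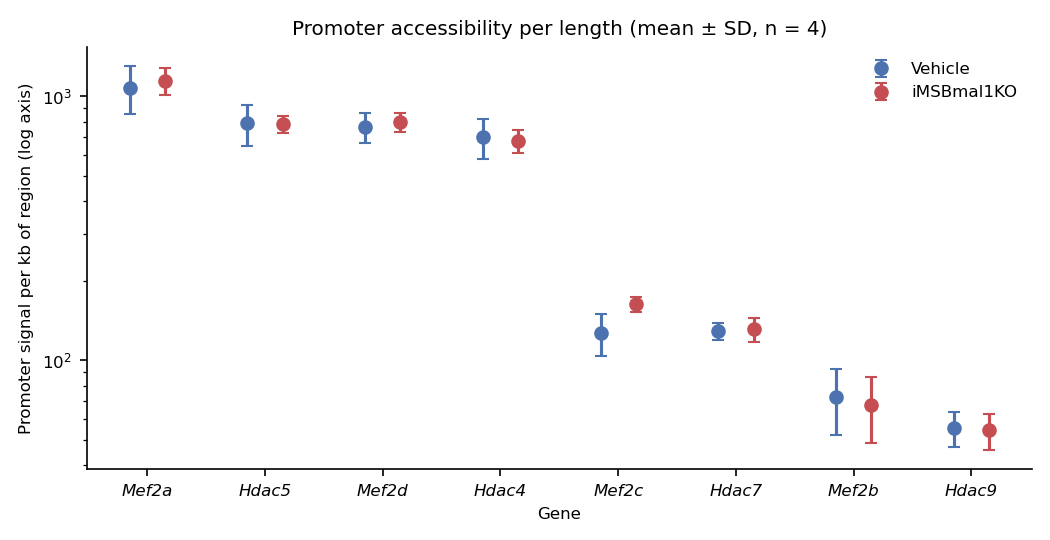
Promoter signal per kb of region (log axis) for each gene, as mean ± SD of 4 libraries per group. The group means of Mef2a, Hdac5, Mef2d and Hdac4 stand between 678 and 1143 per kb and those of the other 4 genes between 54.1 and 163.

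Mef2c was the gene with the largest difference in summed promoter signal. The vehicle libraries had 517, 568, 412 and 385, and the iMSBmal1KO libraries 610, 651, 553 and 610. Only vehicle replicate 2 reached above the lowest iMSBmal1KO library. The log2 change was 0.38 with a 95% interval of 0.02 to 0.74, and the limma adjusted p over 16019 genes was 0.465 (unadjusted 0.0405). The exact two-sided permutation p was 0.0571, where the smallest possible is 0.0286. At this unadjusted level stood 10.6% of all promoter sums, and 0.119% passed after adjustment. Without Vehicle replicate 4 the change was 0.29, and it was 0.26 under median-of-ratios factors, 0.25 under total signal and 0.20 under loess. The other 7 promoter sums had log2 changes of −0.10 to 0.10, with limma adjusted p from 0.821 to 0.993, while the median over all promoter sums was 0.16.

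Several Mef2c starts had higher mean signal in iMSBmal1KO. Those below were named as the strongest, for the smallest p of the gene, or after their values were seen. Mef2c (ENSMUSG00000005583, plus strand, regions from chr13:83503225-83662410) had 36 tested regions of 128. The log2 change was above 0 in 28 of them and above that of the median region of the table in 21. At the upstream start, chr13:83504010-83504354, the vehicle libraries had 212, 231, 213 and 106 and the iMSBmal1KO libraries 263, 287, 211 and 263. Vehicle replicate 4 was far below the rest, and the log2 change of 0.48 was 0.22 without it (limma adjusted p 0.553 and 0.826). The means of this region were 191 in vehicle and 256 in iMSBmal1KO, where those of the promoter sum were 471 and 606. At a further start, chr13:83524688-83524970, vehicle had 30.9, 48.3, 24.8 and 40.6 and iMSBmal1KO 66.3, 76.1, 51.3 and 48.9. Here the groups did not overlap, by a small margin, and the change was 0.75 ± 0.28 (SE, limma adjusted p = 0.472). At the internal start shown above, chr13:83573517-83573716, vehicle had 30.9, 38.0, 28.0 and 15.6 and iMSBmal1KO 49.2, 34.3, 48.9 and 48.9, a change of 0.72 in which only iMSBmal1KO replicate 2 reached into the vehicle range.

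Other Mef2c regions did not all share this direction. In chr13:83532115-83532347, 1977 bp after a listed start, vehicle had 67.2, 56.5, 51.5 and 43.8 and iMSBmal1KO 74.5, 74.4, 76.3 and 105, with no overlap and a change of 0.59 (limma adjusted p = 0.505). The strongest Mef2c region, chr13:83515119-83515504, had 867 per kb of region and a change of 0.08, with overlapping groups. At chr13:83592945-83593152, labelled as a transcription end, vehicle had 23.5, 21.6, 22.2 and 21.9 and iMSBmal1KO 15.4, 13.4, 10.7 and 8.78. Every iMSBmal1KO library lay below every vehicle library, and the change was −0.86 ± 0.32 (SE, limma adjusted p = 0.472). In the intronic chr13:83603835-83604068 vehicle had 70.4, 99.7, 58.5 and 31.3 and iMSBmal1KO 94.2, 105, 91.8 and 105, a change of 0.71 with vehicle replicate 2 inside the iMSBmal1KO range. In its neighbour chr13:83604338-83604535 the change of 1.44 was 0.60 without Vehicle replicate 4, which held no read there.

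**Figure D4:**
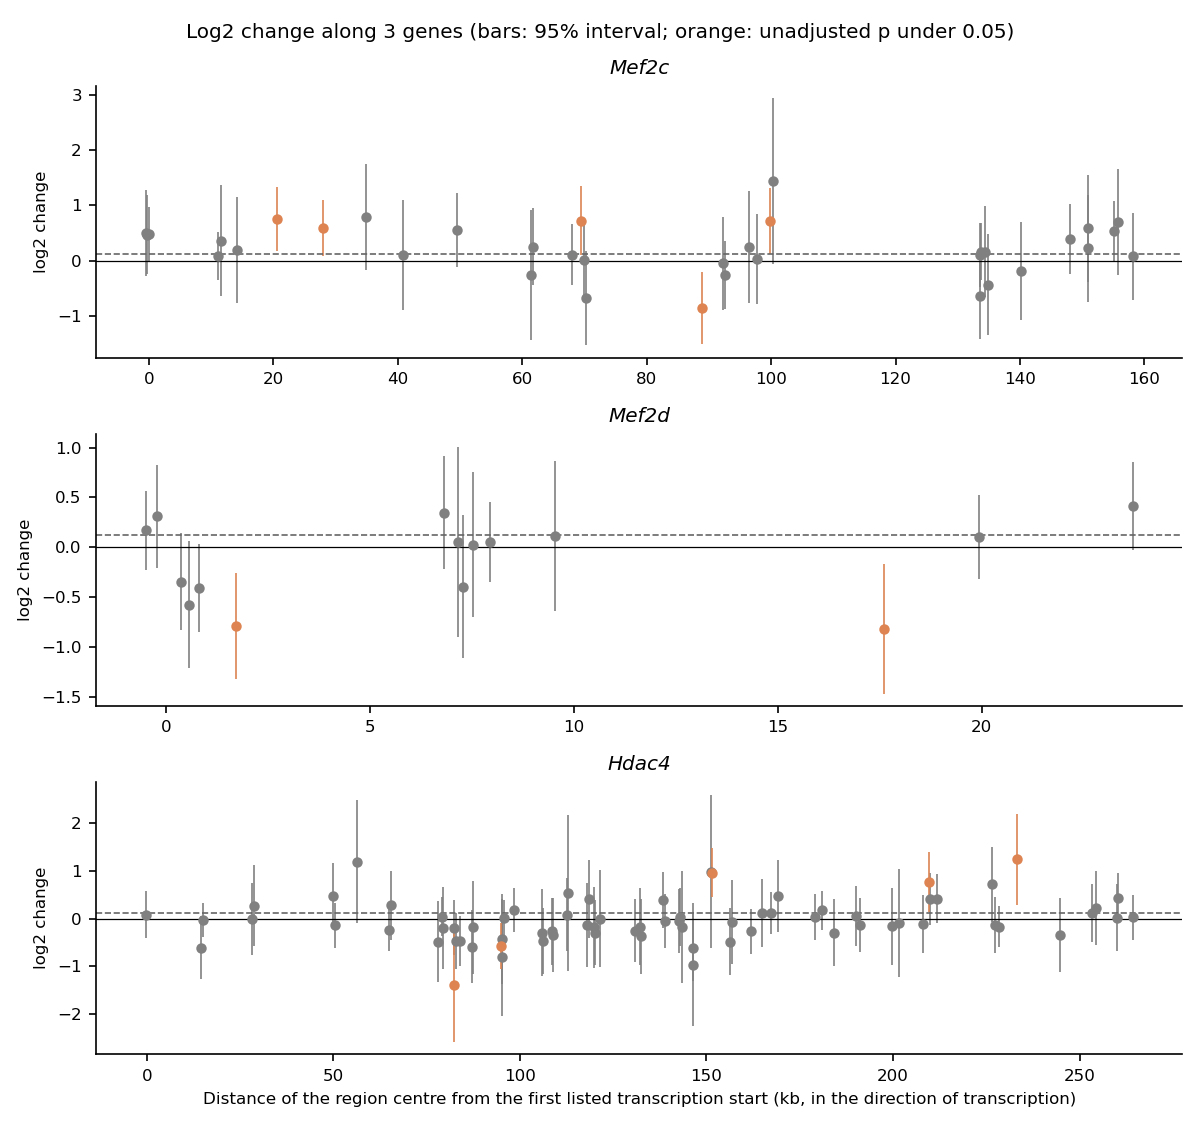
Log2 change (iMSBmal1KO minus Vehicle) with its 95% interval for each tested region of Mef2c, Mef2d and Hdac4, by distance in kb from the first listed start in the direction of transcription. The dashed line is the median of all tested regions (0.12) and orange marks an unadjusted p under 0.05. The Mef2d regions just after the start lie below 0, and 28 of the 36 Mef2c regions lie above 0.

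At Mef2d, 4 regions just behind the start had log2 changes below 0, while those at the start lay above 0, as did the median TSS region of the table. Mef2d (ENSMUSG00000001419, plus strand) had 15 tested regions of 24. The 2 regions at the start, chr3:88141937-88142228 and chr3:88142228-88142478, had 1418 and 1483 per kb of region and changes of 0.17 and 0.31. The median over all tested TSS regions was 0.17. The first of the 2 regions had 0.053 under median-of-ratios factors, 0.044 under total signal and 0.039 under loess, so its sign is not read as a result. The next 4 regions, from 246 to 1637 bp after the start, had changes of −0.34, −0.57, −0.41 and −0.79. In the farthest of these, chr3:88144209-88144373, vehicle had 133, 90.4, 158 and 116 and iMSBmal1KO 46.2, 73.6, 83.5 and 85.3. Every iMSBmal1KO library lay below every vehicle library (log2 change −0.79 ± 0.25, SE, limma adjusted p = 0.407). The groups also did not overlap in chr3:88143089-88143175, with 23.6 to 28.6 in vehicle and 12.4 to 22.7 in iMSBmal1KO. The table labels these as 5′ UTR exon, but it used that label across 9.38 kb of this transcript, so introns are included. In Intron 6, chr3:88160098-88160239, vehicle had 37.3, 20.5, 25.4 and 31.3 and iMSBmal1KO 17.5, 15.1, 19.1 and 11.3, again with no overlap (change −0.81, limma adjusted p = 0.490).

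Mef2a and Mef2b had no region at an unadjusted p under 0.05. Mef2a (ENSMUSG00000030557, minus strand) held 75.8% of its summed signal in 1 region at its start, chr7:67372790-67373725. This region had 1378, 1112, 1002 and 844 in vehicle and 1066, 1349, 1059 and 1147 in iMSBmal1KO. The ranges overlapped and the change was 0.11, with a 95% interval of −0.27 to 0.48. The largest Mef2a change, 1.58 in chr7:67310621-67310867, rested on 8.26 ± 10.2 against 15.9 ± 10.1 (SD, n = 4), a spread larger than the difference. It was 0.80 without Vehicle replicate 4, which held no read there, and 2.32 without Vehicle replicate 2. Mef2b (ENSMUSG00000079033, plus strand) had 3 tested regions of 10, with changes of −0.15 to −0.07, and its start region, chr8:70152731-70152880, had 17.9 ± 3.85 and 16.1 ± 4.08 (SD, n = 4). A listed Mef2b transcript starts within the promoter regions of its neighbour Borcs8, so the signal there is not counted for Mef2b.

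Hdac4 held the region with the smallest p among the 8 genes. Hdac4 (ENSMUSG00000026313, minus strand) had 74 tested regions of 193, of which 43 had a negative change and 19 a change above that of the median region of the table. In Intron 2, chr1:92044129-92044374, the vehicle libraries had 140, 92.5, 83.2 and 59.4 and the iMSBmal1KO libraries 178, 181, 148 and 199. Every iMSBmal1KO library lay above every vehicle library. The means were 93.7 ± 33.7 and 177 ± 21.4 (SD, n = 4), a log2 change of 0.97 ± 0.25 (SE). Its unadjusted p was 7.92e-04 and its limma adjusted p 0.214, which ranged from 0.0800 to 0.546 over the 17 other settings, and the change without Vehicle replicate 4 was 0.77. At the main promoter, chr1:92180271-92181052, with 2003 per kb of region, the libraries had 1982, 1636, 1434 and 1278 in vehicle and 1468, 1707, 1369 and 1638 in iMSBmal1KO, with overlap and a change of −0.02.

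Further Hdac4 regions went in both directions. In Intron 5, chr1:91986069-91986187, vehicle had 20.3, 20.5, 10.8 and 18.8 and iMSBmal1KO 36.2, 29.3, 26.2 and 28.9, with no overlap (change 0.77, limma adjusted p = 0.498). In Intron 13, chr1:91962469-91962594, 3.13 to 24.5 stood against 27.4 to 37.6, a change of 1.25 in which Vehicle replicate 4 had 1 read and which was 0.65 without that library. In Intron 1, chr1:92100607-92100847, vehicle had 194, 185, 189 and 125 and iMSBmal1KO 79.2, 131, 116 and 143. Only vehicle replicate 4 lay within the iMSBmal1KO range, and the change was −0.57 (limma adjusted p = 0.505). The lowest change of any member region, −1.39, was in the 58 bp region chr1:92113340-92113398, with 9.38 to 22.4 in vehicle and 1.19 to 13.8 in iMSBmal1KO and as few as 1 read in a library. Without iMSBmal1KO replicate 3, which held that read, the change was −0.89. In Intron 2, chr1:92049150-92049218, some kb from the region with the smallest p, vehicle had 28.6, 13.8, 31.1 and 3.13 and iMSBmal1KO 9.21, 15.9, 3.58 and 4.15. Vehicle replicate 4 was the lowest of all 8 libraries there. The change was −0.96 (limma adjusted p = 0.616), −1.60 without that library (limma adjusted p = 0.202) and −0.61 without Vehicle replicate 3.

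**Figure D5:**
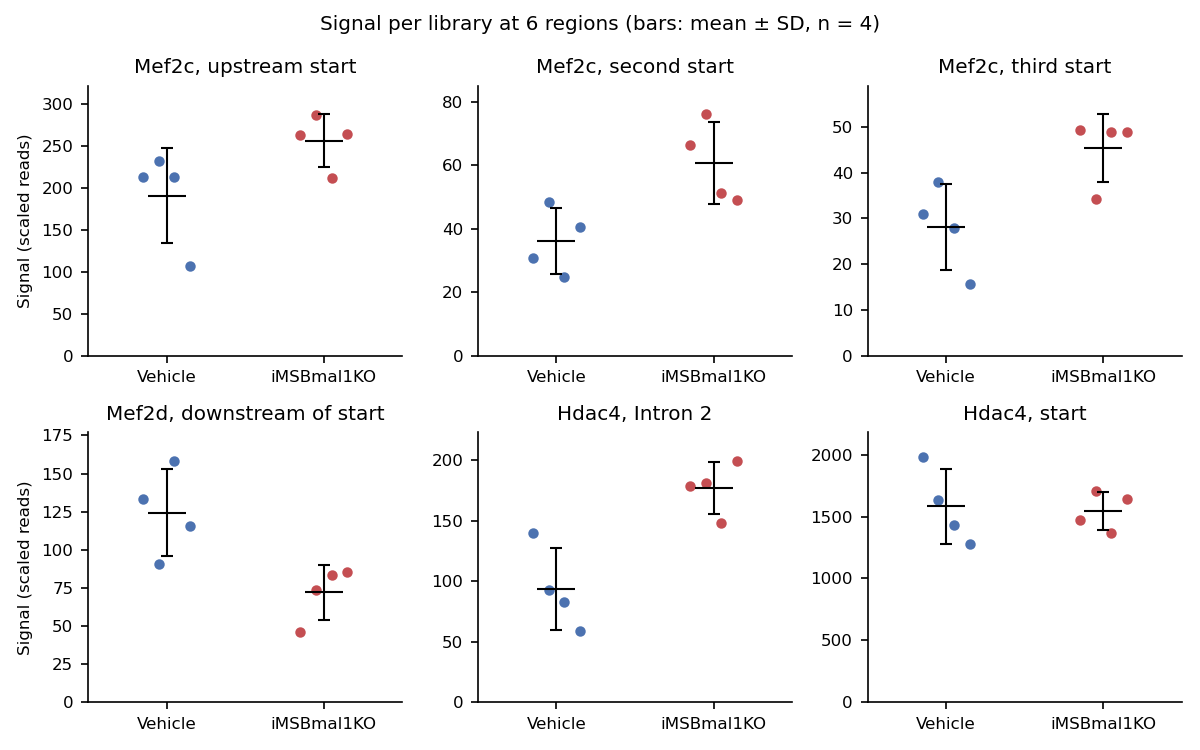
Signal per library (scaled reads, axes from 0) with mean ± SD (n = 4 per group) at 3 Mef2c starts, the Mef2d region 1637 bp behind its start, the Hdac4 region in Intron 2 and the main Hdac4 promoter. The groups are apart at the Mef2d and Hdac4 Intron 2 regions and at the middle Mef2c start, and overlap in the other 3.

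Hdac5 and Hdac9 had no region at an unadjusted p under 0.05, and Hdac7 had 1. Hdac5 (ENSMUSG00000008855, minus strand) was strongest at chr11:102218811-102219202, with 1944 per kb of region. The libraries had 868, 729, 814 and 572 in vehicle and 719, 842, 734 and 804 in iMSBmal1KO, with overlap and a change of 0.07 (95% interval −0.30 to 0.44). Its smallest p was at chr11:102209899-102210023, with 32.2 ± 10.2 and 46.0 ± 5.97 (SD, n = 4, change 0.54, limma adjusted p = 0.559). Hdac7 (ENSMUSG00000022475, minus strand) had 38.5% of its summed signal in chr15:97812141-97812622, away from its annotated promoters. That region had 746, 607, 742 and 638 in vehicle and 640, 605, 652 and 680 in iMSBmal1KO, a change of −0.08 with overlapping groups. The Hdac7 region at an unadjusted p of 0.0226, chr15:97831601-97831663, was 62 bp long and had 6.25 to 11.3 in vehicle and 10.0 to 25.1 in iMSBmal1KO. Its strongest promoter region, chr15:97832356-97832590, had 44.2 ± 9.26 and 45.4 ± 17.9 (SD, n = 4). Hdac9 (ENSMUSG00000004698, minus strand) had 36.5% of its signal in Intron 4, at chr12:34516858-34517465, and 8.71% in its promoters. In that region vehicle had 418, 396, 248 and 166 and iMSBmal1KO 294, 384, 333 and 442. Vehicle replicates 3 and 4 lay below all iMSBmal1KO libraries and the other 2 within their range, and the change was 0.32 (limma adjusted p = 0.684). The strongest Hdac9 promoter region, chr12:34528855-34529029, had 17.4 ± 3.07 and 16.1 ± 4.92 (SD, n = 4). The smallest p was at chr12:34896086-34896339, where the change of −0.76 (limma adjusted p = 0.651) was −0.34 without Vehicle replicate 4 and −1.22 without Vehicle replicate 1.

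The share of signal by annotated section was close in both groups. For the MEF2 factors, 46.2% ± 2.96 of the summed signal lay in TSS regions in vehicle and 48.8% ± 2.44 in iMSBmal1KO (SD, n = 4). For the deacetylases it was 23.8% ± 0.473 and 24.0% ± 0.872, and introns held 46.9% ± 1.76 and 47.8% ± 1.30. Among TSS regions the median log2 change was 0.17 for 15 MEF2 regions and −0.02 for 21 deacetylase regions, beside 0.17 over all 31331 tested TSS regions. Among introns it was 0.16 for 16 MEF2 regions and −0.06 for 72 deacetylase regions, beside 0.10 over all.

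Genes of the surrounding pathway also had no region past the test in the fit described above. Over all tested regions 0.0881% were called, 9.22% stood at an unadjusted p under 0.05 and the median log2 change was 0.12. The kinases and 14-3-3 proteins that act on class IIa deacetylases, 18 of 19 with tested regions, had 0 of 238 regions called, and 5.88% at an unadjusted p under 0.05 (9 higher and 5 lower, median log2 change 0.09). Camk2d, a calcium-dependent kinase, had 2234, 2192, 1918 and 1620 in vehicle and 2498, 2896, 2575 and 2431 in iMSBmal1KO. It was named for the smallest p of the 18 gene sums. Its groups did not overlap, as in 5.21% of all gene sums in either direction. The summed change was 0.39 ± 0.14 (SE, limma adjusted p = 0.443), beside a median of 0.12 over all genes. The exact permutation p was 0.0286, the smallest possible, which any gene with groups that do not overlap has. Camk4, a related kinase, had 64.6 ± 12.1 and 53.4 ± 13.1 (SD, n = 4). Kinases and cofactors of MEF2 itself, 10 genes, had 0 of 124 regions called and 7.26% at that level (4 higher and 5 lower, median −0.01). Vgll2, a muscle cofactor, had summed signal of 224 ± 27.0 and 195 ± 33.2, and Map2k5, a kinase upstream of ERK5, 1245 ± 188 and 1392 ± 154. Target genes of the switch, 11 of 12 with tested regions, had 0 of 145 called and 4.83% at that level (3 higher and 4 lower, median 0.06). Ppargc1a, a coactivator of oxidative metabolism, had 1074 ± 153 and 946 ± 123, and the small heat shock protein gene Hspb7 427 ± 82.0 and 494 ± 82.0.

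Across the 8 libraries the summed log2 signal of each gene was set against the genes with at least 5 tested regions. These r values are descriptions, since all points share the libraries and their scaling. The genes named were picked for the highest r among all those compared, over only 8 libraries. Naa15 was among the genes most like Mef2c (Pearson r = 0.99), where the median r over 5618 genes was 0.60. Mef2a was most like Rccd1 and Fgf13, Mef2d like Bin1 and Pdlim7, Hdac4 like Exoc2 and Synpo2, Hdac5 like Zdhhc8 and Myoz1, Hdac7 like Tob1 and Zbtb7a, and Hdac9 like Gtpbp2 and Bach2, with r from 0.96 to 0.99. Mef2b was most like Kctd3 and Ptk7 (r = 0.93 and 0.93) and had a negative median r of −0.60.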

How the data were processed

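Nuclei from gastrocnemius were isolated on sucrose cushions and made into ATAC-seq libraries with a commercial kit, per the labels' protocols. The submitters' processing notes name Partek, Bowtie2, MACS2 and DESeq2 and the builds mm10 and GRCm39, without role or order. Duplicate removal and transposase shift are not given in the sources used here. The authors deposited 1 table with a signal per region and library, which was not whole. Within 0.02 reads, 98.2% to 99.8% of non-zero values were multiples of a step per library, and dividing by it gave the reads used for filtering and depth. The table names no build, its positions are printed as listed, and all 8 genes overlapped their RefSeq GRCm38.p6 models.

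Regions with 0.762 reads per M (units of 1e+06) in at least 4 libraries and 15 reads in all were tested with limma-trend 3.58.1 (R 4.3.3) on log2(signal + 1), group the only term, robust moderation, Benjamini-Hochberg threshold 0.05. All log2 changes are on that scale, which understates those of low regions. Sums per gene and per promoter were tested likewise, with an exact permutation test over 70 arrangements. The scripts were tested on simulated data. The median tested region held from 6 to 51.0 reads per library.

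The genes, lists and tests were chosen with earlier results of these data known. Regions were named by rule: per gene the strongest promoter region and the smallest p, and overall the 3 largest changes in each direction and any unadjusted p under 0.01. Other regions (the strongest of a gene, some non-overlapping ones and the runs near Mef2c and Mef2d starts) were named after their values were seen. The non-overlapping regions were 3 higher and 2 lower in Mef2c, 3 lower in Mef2d, and 3 higher and 1 lower in Hdac4. Not all of those in Mef2c and Hdac4 are named. Other scalings, pseudocounts, filters, promoter windows, voom weights, a replicate block and leaving out each library were tried. For likeness, the 2 genes with the highest r were named per gene, and 1 of these is not reported here.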

Additional observations from a re-analysis of the deposited data

Results flagged for a closer look

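In 2 of 72 groups of 4 libraries examined, 1 library stood far from the other 3, where chance gives about 1 in 20. Summed Hdac7 signal in iMSBmal1KO was 1607 in replicate 3 and 1722 to 1741 in the others, a gap of 0.860 of the whole range. At the upstream Mef2c start, chr13:83504010-83504354, vehicle replicate 4 had 106 and the others 212 to 231, a gap of 0.847 of the range. That library was also the shallowest, and its part in the difference was not tested beyond leaving it out.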

How the results depend on the processing

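No region of the 8 genes passed the threshold under any of the 17 other settings run, where the smallest adjusted p (limma) was 0.0800 under the loess scaling. The number at an unadjusted p under 0.05 was 13 as reported, 21 under median-of-ratios factors, 20 under total autosomal signal, 24 under loess and 25 under voom weights, where the member share was above that of all regions, as the report gives. It was 44 of 548 without a filter (8.03%, and 6.57% of all regions) and 7 of 73 under a stricter filter (9.59% and 11.1%). Leaving out each replicate gave 10 to 24, the highest without Vehicle replicate 2 (12.1% and 13.9%). Pathway regions past the threshold numbered 0 as reported, 2 under loess (Carm1, chr9:21567202-21567296, and Nr4a1, chr15:101253777-101254070, both lower) and 1 under voom weights (Carm1). The cause was not tested.

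Of the 36 log2 changes recomputed for regions, gene sums and promoter sums, 17 crossed 0 in at least 1 setting, and none of these was past the threshold. Under median-of-ratios factors the values were −0.010 for the Mef2a region at 67372790 and −0.049 for the Hdac5 region at 102218811. Gene sums there were −0.088 for Mef2a, −0.082 for Mef2d and −0.019 for Hdac9, and promoter sums −0.019 for Mef2a, −0.049 for Mef2d, −0.11 for Hdac5 and −0.096 for Hdac7. Under total autosomal signal the same regions had −0.020 and −0.058, the same gene sums −0.098, −0.091 and −0.028, and the same promoter sums −0.028, −0.058, −0.12 and −0.11. Under loess the Hdac5 region had −0.043, the gene sums −0.054 for Mef2a, −0.018 for Mef2d, 0.024 for Hdac4 and −0.020 for Hdac9, and the promoter sums −0.0017 for Mef2a, −0.020 for Mef2d, −0.13 for Hdac5 and −0.21 for Hdac7. Under voom weights the Hdac7 region at 97832356 had 0.092, and with a wider promoter window the Hdac5 promoter sum was −0.046.

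Leaving out each replicate gave −0.12 to 0.094 for the Hdac4 region at 92180271, −0.0049 to 0.23 for the Mef2a region, −0.053 to 0.15 for the Hdac5 region, −0.20 to 0.14 for the Hdac7 region and −0.26 to 0.070 for the Hdac9 region at 34528855. Gene sums spanned −0.12 to 0.077 for Hdac4, −0.15 to 0.046 for Hdac5, −0.031 to 0.11 for Mef2a and −0.046 to 0.094 for Mef2d. Promoter sums spanned −0.13 to 0.061 for Hdac4, −0.040 to 0.064 for Hdac7, −0.13 to 0.041 for Hdac9, −0.12 to 0.078 for Hdac5, −0.015 to 0.22 for Mef2a, −0.23 to 0.081 for Mef2b and −0.026 to 0.12 for Mef2d.

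The labels number replicates 1 to 4 in each group, but same-numbered libraries deviated together with correlations of only −0.06 to 0.14, and none correlated best with its own number. With a replicate block 16 member regions had an unadjusted p under 0.05 and 0 passed. An edgeR alternative was planned and not run, because not all values were whole reads. At a median of 6 reads per tested region, Vehicle replicate 4 limits what can be seen at low regions.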
